A study of Mus musculus with 12 samples.

Results

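Phase II conjugation enzymes join a polar group to drugs, hormones, bilirubin and bile acids, so that these leave the liver in bile or urine. The genes described are the UDP-glucuronosyltransferases of families 1, 2 and 3 (Ugt), the soluble and kappa-class glutathione S-transferases (Gst) and the sulfotransferases of families 1 to 5 (Sult). They were taken by gene symbol from the deposited expression table, where 58 entries matched. The oestrogen sulfotransferase gene Sult1e1 was not included (1 entry), and a further 2 had a value of 0 throughout. That left 55 genes of the 18616 symbols that were not at 0 throughout: 20 Ugt, 20 Gst and 15 Sult genes. Of the 55, 44 had a mean log2 level of at least 4 over the 12 libraries and were tested, among 12965 symbols tested in all.

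Livers came from wild-type C57BL/6 female mice in 4 groups of 3 libraries: ovariectomized females given dexamethasone, ovariectomized females given vehicle, intact females given dexamethasone and intact females given vehicle. Dexamethasone, a synthetic glucocorticoid, was given at 1 mg/kg, the vehicle was PBS, and both were given 6 h before collection. With the ovaries the main source of oestrogen is lost. The sources used here give neither the age of the mice nor the time since ovariectomy. The design asks how dexamethasone changes the liver in each gonadal state, how the gonadal states differ under each treatment, and for which genes the dexamethasone response itself differs. Whether each library is a separate animal is not stated, so every p-value rests on the spread between libraries, which may be technical.

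In glucuronidation, Ugt enzymes in the endoplasmic reticulum transfer glucuronic acid from UDP-glucuronic acid to phenols, bilirubin, steroids and bile acids. In sulfonation, cytosolic Sult enzymes transfer sulfonate from the donor PAPS to phenols, catecholamines, hydroxysteroids and bile acids. Gst enzymes join glutathione to electrophiles such as epoxides and lipid peroxidation products. In mice many of these genes differ between the sexes and respond to nuclear receptors, among them PXR, CAR, PPAR alpha and the Ah receptor, and to NRF2.

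Every level below is a log2 value from the deposited table. The table holds no read counts, so the depth behind a value is unknown. Levels are not per length and are compared only within a gene. Each difference is a log2 fold change with its SE (limma, 3 libraries in each group), and a gene is said to pass where its p, adjusted by Benjamini-Hochberg over the 12965 symbols, is under 0.05. Library medians lay between 8.82 and 8.86, and pairs of replicates lay 0.172 to 0.32 apart (root mean square over symbols). All 6 hepatocyte markers were present, and their summed log2 level lay between 21.97 and 22.33 in the 12 libraries. Marker levels were summed on the linear scale, so this sum mainly follows Alb (mean 21.79), with Apoa1 next (18.25). The range therefore does not describe the other markers one by one. Of the 6, 4 rose and 0 fell with dexamethasone in ovariectomized females, and 3 rose and 0 fell in intact females. In bulk liver, fewer cells of a type and less RNA per cell cannot be told apart. Summed markers of sinusoidal endothelium were higher with dexamethasone in both states. In ovariectomized females they lay at 12.99 to 13.27 on dexamethasone against 12.67 to 12.87 on vehicle. In intact females they lay at 13.07 to 13.5 against 12.66 to 12.78. Single endothelial markers moved both ways. Of the 6, 2 rose and 2 fell in ovariectomized females, and 3 rose and 1 fell in intact females. Stab1 and Lyve1 rose and Kdr fell in both states. Summed markers of T and B cells were lower with dexamethasone. They lay at 7.21 to 7.35 against 7.73 to 7.98 in ovariectomized females and at 7.35 to 7.37 against 7.69 to 8.01 in intact females. Stellate cell markers lay at 12.61 to 12.86 on dexamethasone against 12.37 to 12.81 on vehicle in ovariectomized females, and at 13.02 to 13.17 against 12.56 to 12.77 in intact females. Neutrophil markers lay at 6.81 to 6.99 on dexamethasone against 7.55 to 7.88 on vehicle in ovariectomized females, and at 7.22 to 7.37 against 7.18 to 7.53 in intact females. The part of these shifts in the results was not tested.

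Many members are close copies of each other, which limits what counts per gene can show. For 23 of the 55 genes, at least 20% of the 50-base words of their transcripts also occur in another gene. The Ugt1a genes on chromosome 1 share their 3′ exons, and 62.0% (Ugt1a9) to 100% (Ugt1a6a) of their words occur elsewhere, mostly in other Ugt1a genes. They also overlap Gm20528 on the opposite strand, and the library kit does not mark strand. Among the Gst and Sult genes the largest shares were those of Gsta1 (89.7%), Gstp2 (72.6%), Gsta2 (64.2%), Gstp1 (62.3%) and Sult2a2 (62.1%). The sources used here do not say how reads matching several genes were counted, so values of single members of these groups are uncertain. Sult1d1, Sult1b1, Gsta3, Gsta4 and Ugt2b1 shared no word with another gene, and Ugt2b35 shared 0.3%.

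RefSeq promoter windows of 300 bases (250 before and 50 after the start, GRCm38.p6) were held for 47 of the 55 genes. In 8 of the 47 (17.0%) a window contained GTTA and TTAAC with any 4 bases between them, on either strand, against 0.222% of 27025 genes with such a window. These letters were chosen after the sequences had been seen. The 8 genes were Ugt3a1 and all 7 Ugt2b genes of the table, which are neighbours on chromosome 5 and related in sequence. Their 150 bases before the start are shown because Ugt2b37 rose and Ugt2b35 and Ugt2b36 fell with dexamethasone while all carry this element. Capitals mark the element, and every sequence is written 5′ to 3′ on the strand of the gene.
Ugt2b37 (chr5:87254789-87254938, minus strand): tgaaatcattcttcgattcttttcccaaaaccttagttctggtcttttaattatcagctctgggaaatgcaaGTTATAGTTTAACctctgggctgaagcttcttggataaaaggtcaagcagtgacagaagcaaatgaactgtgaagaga
Ugt2b38 (chr5:87424204-87424353, minus strand): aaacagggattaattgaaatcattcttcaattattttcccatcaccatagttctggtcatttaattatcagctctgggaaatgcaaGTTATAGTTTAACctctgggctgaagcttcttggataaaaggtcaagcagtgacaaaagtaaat
Ugt2b5 (chr5:87140341-87140490, minus strand): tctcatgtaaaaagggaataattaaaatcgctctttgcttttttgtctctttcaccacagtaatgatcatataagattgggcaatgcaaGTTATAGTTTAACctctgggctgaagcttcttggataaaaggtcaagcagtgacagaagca
Ugt2b36 (chr5:87092556-87092705, minus strand): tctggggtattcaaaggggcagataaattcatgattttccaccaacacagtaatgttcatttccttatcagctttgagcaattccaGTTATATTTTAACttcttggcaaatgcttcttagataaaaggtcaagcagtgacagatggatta
Ugt2b35 (chr5:87000710-87000859, plus strand): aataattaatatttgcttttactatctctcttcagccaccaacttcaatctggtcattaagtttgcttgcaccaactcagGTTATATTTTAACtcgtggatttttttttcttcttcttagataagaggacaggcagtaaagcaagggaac
Ugt2b34 (chr5:86906938-86907087, minus strand): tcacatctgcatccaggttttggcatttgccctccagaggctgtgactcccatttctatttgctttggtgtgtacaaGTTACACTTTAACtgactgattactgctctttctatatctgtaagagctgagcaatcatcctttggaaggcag
Ugt2b1 (chr5:86926504-86926653, minus strand): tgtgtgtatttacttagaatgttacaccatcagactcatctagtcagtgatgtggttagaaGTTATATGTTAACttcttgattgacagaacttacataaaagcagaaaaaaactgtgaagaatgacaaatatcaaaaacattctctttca
Ugt3a1 (chr15:9279679-9279828, plus strand): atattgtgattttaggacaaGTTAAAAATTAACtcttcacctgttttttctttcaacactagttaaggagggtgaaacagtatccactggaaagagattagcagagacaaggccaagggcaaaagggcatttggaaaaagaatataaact

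Counted from the start of the gene, the element began between -89 and -61 in the 7 Ugt2b genes and at -130 in Ugt3a1. The stretch of Ugt2b37 was 94.1% identical to that of Ugt2b38 over 136 aligned positions and 78.0% identical to that of Ugt2b36 over 109. A palindrome of the glucocorticoid receptor, GNACA and TGTNC with any 3 bases between them, was in 0 of the 47 windows, against 0.537% of 27025 genes. The antioxidant response letters TGACNNNGC, known from NRF2 targets, were in 3 windows (Gsta3, Gstm5 and Gstm7; 6.38%), against 13.99% of genes. The Ah receptor letters GCGTG were in 9 windows (19.1%), against 35.2%. The HNF4 letters CAAAGTCCA were in 1 window, that of Sult1b1 (2.13%), against 0.555%, and the C/EBP letters TTGCGCAA were in 0, against 0.207%. Both strands were searched, and a match is a description of letters in this window and not of binding.

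Over the 44 tested genes, dexamethasone gave 4 rises and 8 falls in ovariectomized females, and 9 rises and 17 falls in intact females. In ovariectomized females 9.09% rose and 18.2% fell, against 21.3% and 19.4% of all symbols tested (40.7% in either direction). In intact females 20.5% rose and 38.6% fell, against 22.8% and 25.9% of all symbols (48.8% in either direction). The median change was -0.08 in ovariectomized and -0.18 in intact females, and the medians of all symbols were -3e-04 and 0.0013. Sult1d1, Sult3a1 and Ugt2b37 rose in both states, and Gsta4, Gstt2, Sult1c2, Ugt2b35 and Ugt2b36 fell in both. Gstm5 fell in ovariectomized and rose in intact females, but the rise was small (0.17 ± 0.0656, adjusted p = 0.0461 in limma). That rise did not pass after taking out the trend of each library with transcript length and GC content. A further 3 genes (Gstm4, Gstp1 and Gstt3) passed in ovariectomized females alone, 17 passed in intact females alone and 15 passed in neither. How all symbols split over these classes was not counted. More of all symbols passed in intact (48.8%) than in ovariectomized females (40.7%). The larger number in intact females alone is therefore not shown to be particular to these genes.

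**Figure D1:**
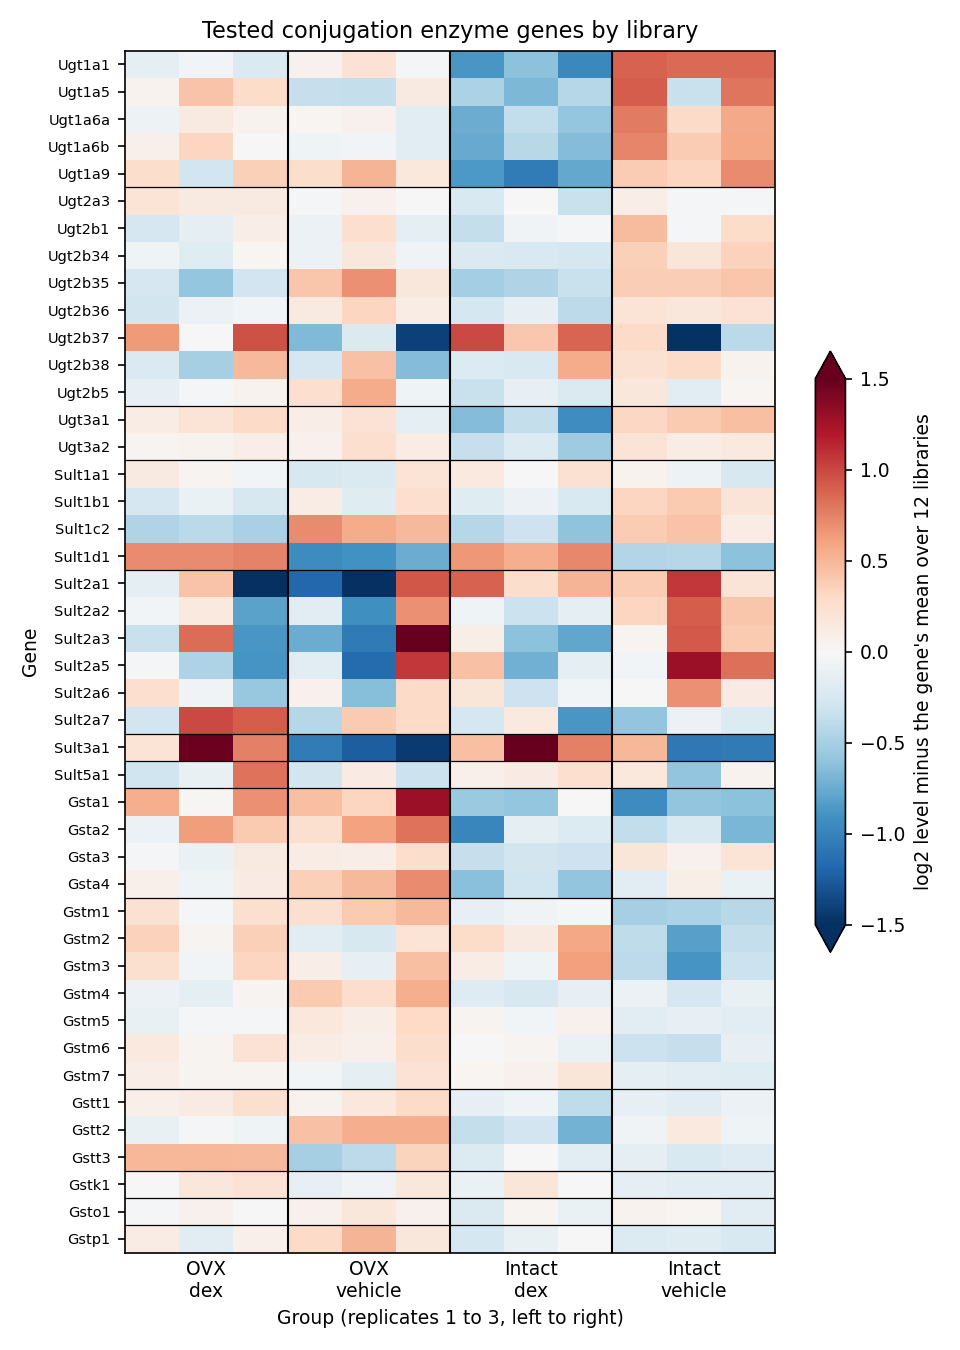
Log2 level of the 44 tested genes in each of the 12 libraries, minus the mean of the gene over all libraries, with columns by group (OVX, ovariectomized; dex, dexamethasone) and lines between families. The Ugt1a and Ugt3a genes are low in intact females on dexamethasone, Sult1d1 is high in both dexamethasone groups, and most Gstm genes are low in intact females on vehicle.

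Between gonadal states, 11 genes were higher and 5 lower in ovariectomized than in intact females under vehicle (25% and 11.4%, against 12.4% and 15.5% of all symbols, or 27.9% in either direction). Under dexamethasone 12 were higher and 0 lower in limma (27.3% and 0%, against 7.74% and 5.08%, or 12.8% in either direction). At an unadjusted p under 0.05, 17 were higher and 0 lower. The dexamethasone response was higher in ovariectomized than in intact females for 10 genes and lower for 3 (22.7% and 6.82%, against 15.3% and 9.65%, or 24.9% in either direction). Quantile normalization moved this last split to 6 higher and 5 lower. The count under vehicle that was lower went to 8 without ovariectomized vehicle replicate 3. The count under dexamethasone that was higher went to 5 without intact dexamethasone replicate 1 or without ovariectomized dexamethasone replicate 3. All comparisons between gonadal states share libraries with the dexamethasone comparisons, so they are not independent of them.

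Most glucuronosyltransferase genes fell with dexamethasone in intact females. Of 15 tested Ugt genes, 1 rose and 2 fell with dexamethasone in ovariectomized females (6.67% and 13.3%, against 21.3% and 19.4% of all symbols). In intact females 1 rose and 12 fell. The share that fell in intact females was 80%, against 25.9% of all symbols, and the median change was -0.53. The response was higher in ovariectomized females for 9 of the 15 and lower for 0, also at an unadjusted p under 0.05. These shares were 60% and 0%, against 15.3% and 9.65% of all symbols. Once the dependence of each library on transcript length and GC content was taken out, there were 12 falls and 1 rise in intact females and 8 higher responses. Under quantile normalization there were 10 falls and 1 rise in intact females (median -0.39) and 6 higher responses.

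The Ugt1a locus carries several first exons joined to common later exons, and each first exon with its own promoter gives an enzyme with its own substrates. All 5 tested Ugt1a genes fell with dexamethasone in intact females (100%, against 25.9% of all symbols), with a median change of -1.17. None of the 5 passed in ovariectomized females, where their median was 0.06 and 40.7% of all symbols passed. At an unadjusted p under 0.05, 1 of the 5 was lower with dexamethasone in ovariectomized females. For all 5 the response was higher in ovariectomized females (100%, against 15.3% of all symbols), with a median difference of 1.40. Between gonadal states 3 of the 5 were lower in ovariectomized than in intact females under vehicle (60%, against 15.5%, median -0.65). Under dexamethasone 4 were higher (80%, against 7.74%, median 0.74). These 5 share sequence and are not independent measurements.

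Ugt1a1 (Entrez 394436) encodes the enzyme that conjugates bilirubin. Its level was 12.16, 12.27 and 12.09 in ovariectomized females on dexamethasone, against 12.37, 12.52 and 12.29 on vehicle. In intact females it was 11.43, 11.69 and 11.34 on dexamethasone, against 13.18, 13.16 and 13.15 on vehicle. The intact dexamethasone libraries lay below all others and the intact vehicle libraries above all others, with both ovariectomized groups in between. The fall in intact females was -1.68 ± 0.087, adjusted p = 4.48e-07, a fold of 0.312. In ovariectomized females the change was -0.22 ± 0.087, adjusted p = 0.0614, and it passed under 7 of the alternatives tried (0.0197 to 0.0461), quantile normalization among them. The responses differed by 1.46 ± 0.123, adjusted p = 0.000148. Ugt1a1 was lower in ovariectomized than in intact females under vehicle (-0.77 ± 0.087) and higher under dexamethasone (0.69 ± 0.087).

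Ugt1a6a (Entrez 94284) and Ugt1a6b (Entrez 394435) encode enzymes that act on small planar phenols. Ugt1a6b stood at 8.96, 9.20 and 8.87 in ovariectomized females on dexamethasone, against 8.81, 8.84 and 8.71 on vehicle, and at 8.13, 8.46 and 8.23 in intact females on dexamethasone, against 9.61, 9.26 and 9.46 on vehicle. As with Ugt1a1, the intact dexamethasone libraries were the lowest and the intact vehicle libraries the highest. It fell by 1.17 ± 0.112 in intact females (adjusted p = 1.54e-05) and changed by 0.23 ± 0.112 in ovariectomized females (adjusted p = 0.127). Ugt1a6a stood at 8.88, 9.09 and 9.01 in ovariectomized females on dexamethasone, against 8.98, 9.02 and 8.80 on vehicle, and at 8.21, 8.58 and 8.37 in intact females on dexamethasone, against 9.73, 9.24 and 9.53 on vehicle. Its 2 ovariectomized groups overlapped and its 2 intact groups did not. It fell by 1.11 ± 0.125 in intact females and changed by 0.06 ± 0.125 in ovariectomized females. Every 50-base word of the Ugt1a6a transcript and 80.7% of those of Ugt1a6b also occur in Ugt1a7c, so the values of both are uncertain.

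Ugt1a9 (Entrez 394434), whose human counterpart acts on bulky phenols such as propofol, had levels of 10.33, 9.78 and 10.43 in ovariectomized females on dexamethasone, against 10.33, 10.57 and 10.23 on vehicle. In intact females its levels were 9.21, 9.02 and 9.30 on dexamethasone, against 10.44, 10.39 and 10.77 on vehicle. The intact dexamethasone libraries stood apart below the other 3 groups, which overlapped. It fell by 1.36 ± 0.162 in intact females (adjusted p = 6.09e-05), changed by -0.20 ± 0.162 in ovariectomized females, and was higher by 1.00 ± 0.162 in ovariectomized than in intact females under dexamethasone. Ugt1a5 (Entrez 394433) had 9.93, 10.30 and 10.15 in ovariectomized females on dexamethasone, against 9.53, 9.51 and 10.001 on vehicle, and 9.39, 9.19 and 9.45 in intact females on dexamethasone, against 10.78, 9.54 and 10.68 on vehicle. Intact vehicle replicate 2 was low, just above the intact dexamethasone libraries. Ugt1a5 fell by 0.99 ± 0.265 in intact females (adjusted p = 0.00907), and the responses differed by 1.43 ± 0.375 (adjusted p = 0.0176).

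Ugt1a10 (Entrez 394430) was not tested, because its mean level was 3.92, just under the minimum of 4. Its levels were 4.72, 4.30 and 4.85 in ovariectomized females on dexamethasone, against 3.53, 3.41 and 3.48 on vehicle. In intact females they were 4.04, 3.80 and 3.84 on dexamethasone, against 3.77, 3.57 and 3.74 on vehicle. The ovariectomized dexamethasone libraries lay above all other libraries. With no filter on the level, the change was 1.15 ± 0.136 in ovariectomized females (adjusted p = 0.000163) and 0.20 ± 0.136 in intact females (adjusted p = 0.294). The remaining untested Ugt1a genes, Ugt1a2 and Ugt1a7c, had means of 0.31 and 2.34 and passed in no comparison with no filter.

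The promoters of Ugt1a9 and Ugt1a10 are shown because these neighbours are alike in sequence, while Ugt1a9 was lowest in intact females on dexamethasone and Ugt1a10 highest in ovariectomized females on dexamethasone. Capitals mark the longest identical run, 32 bases, which begins at -52 in Ugt1a9 and at -32 in Ugt1a10.
Ugt1a9 (chr1:88070629-88070778, plus strand): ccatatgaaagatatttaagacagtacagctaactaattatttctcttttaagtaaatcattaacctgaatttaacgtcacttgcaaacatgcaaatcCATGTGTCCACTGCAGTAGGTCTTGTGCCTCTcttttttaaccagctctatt
Ugt1a10 (chr1:88055261-88055410, plus strand): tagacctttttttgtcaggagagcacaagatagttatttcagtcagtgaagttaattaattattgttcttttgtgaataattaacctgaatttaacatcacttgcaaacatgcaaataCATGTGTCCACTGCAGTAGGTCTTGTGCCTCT

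These stretches were 86.05% identical over 129 aligned positions, and neither window contained any of the 6 motifs searched.

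**Figure D2:**
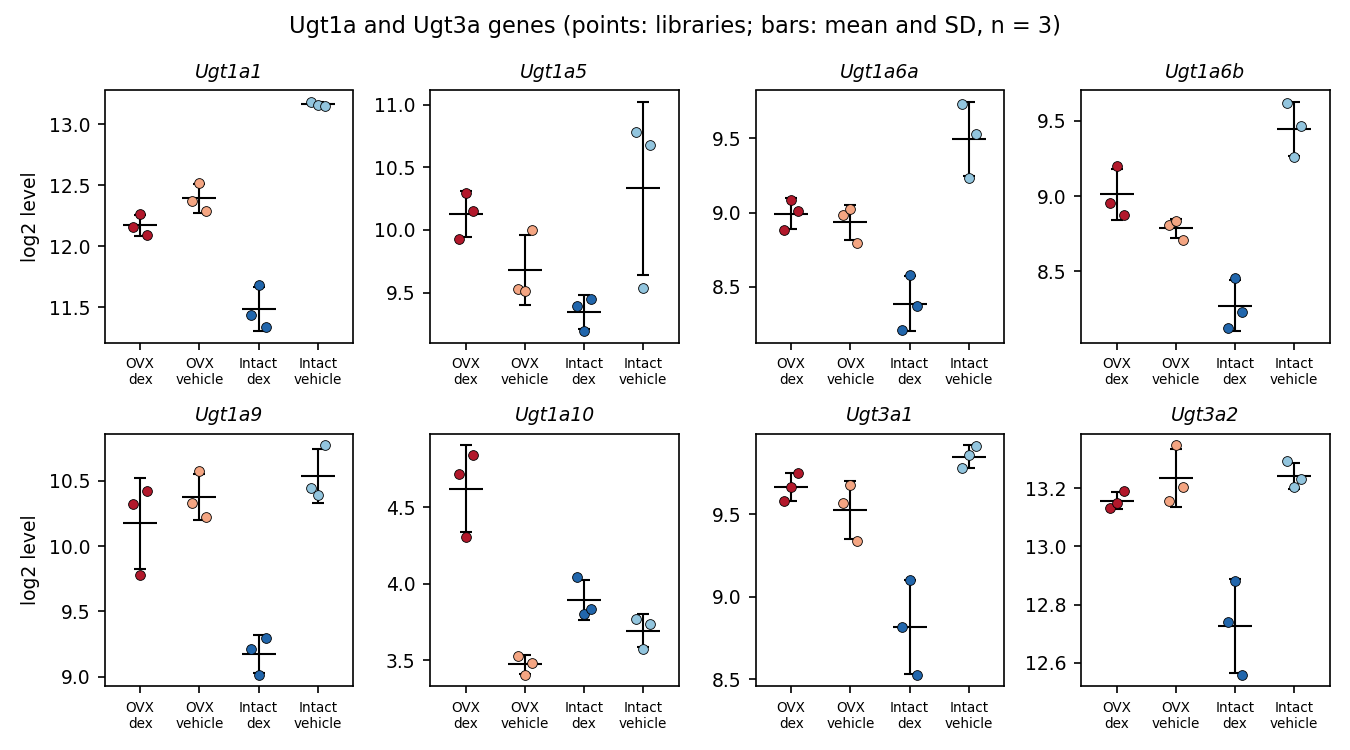
Log2 level of Ugt1a and Ugt3a genes in each library (points), with group mean and SD (bars, n = 3), for ovariectomized (OVX) and intact females on dexamethasone (dex) or vehicle; each panel has its own axis. In Ugt1a1, Ugt1a6a, Ugt1a6b, Ugt1a9, Ugt3a1 and Ugt3a2 the intact dexamethasone libraries are the lowest, and in Ugt1a10 the ovariectomized dexamethasone libraries are the highest.

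Both Ugt3 genes, on chromosome 15, fell with dexamethasone in intact females and did not pass in ovariectomized females. Human UGT3A1 uses UDP-N-acetylglucosamine and human UGT3A2 uses UDP-glucose and UDP-xylose as sugar donors. Ugt3a1 (Entrez 105887) stood at 9.58, 9.66 and 9.75 in ovariectomized females on dexamethasone, against 9.57, 9.68 and 9.34 on vehicle, and at 8.82, 9.10 and 8.53 in intact females on dexamethasone, against 9.78, 9.86 and 9.91 on vehicle. Only the intact dexamethasone libraries were below 9.34. It fell by 1.03 ± 0.126 in intact females (adjusted p = 7.14e-05), changed by 0.14 ± 0.126 in ovariectomized females (adjusted p = 0.404), and the responses differed by 1.17 ± 0.178 (adjusted p = 0.0013). Ugt3a2 (Entrez 223337) had 13.13, 13.15 and 13.19 in ovariectomized females on dexamethasone, against 13.16, 13.35 and 13.20 on vehicle, and 12.74, 12.88 and 12.56 in intact females on dexamethasone, against 13.29, 13.20 and 13.23 on vehicle. Again the intact dexamethasone libraries were below all others. It fell by 0.52 ± 0.0765 in intact females, and the responses differed by 0.44 ± 0.108 (adjusted p = 0.0138, 0.124 under quantile normalization). Under dexamethasone, Ugt3a1 was higher in ovariectomized than in intact females by 0.85 ± 0.126 and Ugt3a2 by 0.43 ± 0.0765.

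The Ugt2 genes, which serve steroids, bile acids and drugs, did not move as one group. Of 8 tested, 1 rose and 2 fell with dexamethasone in ovariectomized females (12.5% and 25%, against 21.3% and 19.4% of all symbols), and 1 rose and 5 fell in intact females (12.5% and 62.5%, against 22.8% and 25.9%). The response was higher in ovariectomized females for 2 of the 8 (25%, against 15.3%). Under quantile normalization 3 of the 8 fell in intact females, and for 0 did the responses differ. Ugt2b35 (Entrez 243085) had the largest fall among them. Its levels were 11.47, 11.15 and 11.43 in ovariectomized females on dexamethasone, against 12.14, 12.41 and 11.90 on vehicle, and 11.22, 11.28 and 11.39 in intact females on dexamethasone, against 12.10, 12.09 and 12.14 on vehicle. All 6 dexamethasone libraries lay below all 6 vehicle libraries. It fell by 0.80 ± 0.115 in ovariectomized females (adjusted p = 0.000323) and by 0.82 ± 0.115 in intact females (adjusted p = 0.000182), and the difference between these was 0.02 ± 0.163 (adjusted p = 0.947). Its neighbour Ugt2b36 also fell in both states, by 0.33 ± 0.0843 in ovariectomized and 0.46 ± 0.0843 in intact females.

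Ugt2b37 (Entrez 112417) rose in both states. It stood at 8.51, 7.88 and 8.82 in ovariectomized females on dexamethasone, against 7.20, 7.65 and 6.46 on vehicle, and at 8.86, 8.27 and 8.74 in intact females on dexamethasone, against 8.15, 6.39 and 7.46 on vehicle. The groups did not overlap in either state, but replicates were far apart and intact vehicle replicate 2 was the lowest library. The rise was 1.30 ± 0.413 in ovariectomized females (adjusted p = 0.0258) and 1.29 ± 0.413 in intact females (adjusted p = 0.0219). Without intact vehicle replicate 2 or intact dexamethasone replicate 1 or 3 the rise in intact females missed the threshold (0.82 to 1.24, adjusted p = 0.0523 to 0.0864). Without ovariectomized vehicle replicate 1 or 3, or ovariectomized dexamethasone replicate 1 or 3, the rise in ovariectomized females missed it (0.98 to 1.34, adjusted p = 0.056 to 0.104). Ugt2b38, whose promoter stretch was 94.1% identical, changed by 0.08 ± 0.307 in ovariectomized and -0.15 ± 0.307 in intact females and did not pass (adjusted p = 0.858 and 0.716). Its words occur elsewhere at 37.4%, and those of Ugt2b37 at 18.3%, mainly in Ugt2b5.

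Ugt2b34, Ugt2b1 and Ugt2a3 passed in intact females alone. Ugt2b34 had 13.66, 13.55 and 13.76 in ovariectomized females on dexamethasone, against 13.65, 13.91 and 13.68 on vehicle, and 13.52, 13.51 and 13.47 in intact females on dexamethasone, against 14.09, 13.91 and 14.07 on vehicle. The intact groups were apart and the ovariectomized groups overlapped. It fell by 0.53 ± 0.0796 in intact females, and the responses differed by 0.44 ± 0.113 (adjusted p = 0.0157, 0.127 under quantile normalization and 0.0652 after taking out the length and GC trend). Ugt2a3 fell by 0.21 ± 0.075 in intact females and changed by 0.15 ± 0.075 in ovariectomized females, a difference of 0.36 ± 0.106 (adjusted p = 0.0289) that missed the threshold without any 1 of 6 libraries (0.0528 to 0.0699) and under quantile normalization (0.20, adjusted p = 0.14). Ugt2b1 fell by 0.38 ± 0.147 in intact females (adjusted p = 0.0471). Ugt2b5 passed in no comparison. Ugt2a1 and Ugt2a2 stood at -2.21 or -2.20 in every library and were not tested.

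**Figure D3:**
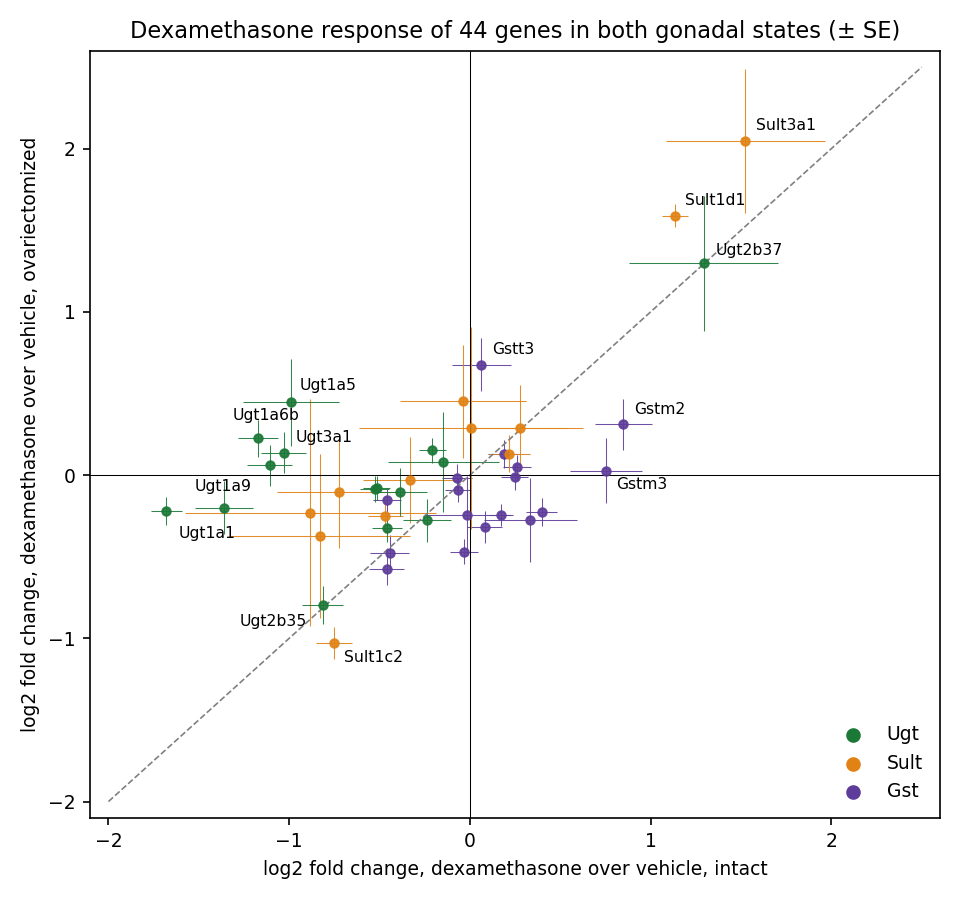
Log2 fold change with dexamethasone in ovariectomized females (vertical) against that in intact females (horizontal) for the 44 tested genes, with SE as lines and equal change as the dashed line. The Ugt1a genes and Ugt3a1 lie near 0 on the vertical and near -1 or below on the horizontal axis, while Sult3a1, Sult1d1 and Ugt2b37 are high on both.

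Sult3a1 and Sult1d1 had the largest rises of all tested members in ovariectomized females, and in intact females Sult3a1, Ugt2b37 and Sult1d1 did. Of 12 tested Sult genes, 2 rose and 1 fell with dexamethasone in ovariectomized females (16.7% and 8.33%, against 21.3% and 19.4% of all symbols), and 2 rose and 2 fell in intact females (16.7% each, against 22.8% and 25.9%). Sult1d1 (Entrez 53315), on chromosome 5, encodes an enzyme for catecholamines and other amines whose human counterpart is a pseudogene. Its levels were 13.90, 13.90 and 13.94 in ovariectomized females on dexamethasone, against 12.24, 12.29 and 12.44 on vehicle, and 13.84, 13.73 and 13.91 in intact females on dexamethasone, against 12.75, 12.76 and 12.57 on vehicle. The 6 dexamethasone libraries lay within 13.73 to 13.94, above all vehicle libraries, and the ovariectomized vehicle libraries were below the intact vehicle libraries. Sult1d1 rose by 1.59 ± 0.0714 in ovariectomized females (3.01-fold, adjusted p = 3.62e-07) and by 1.13 ± 0.0714 in intact females (2.2-fold, adjusted p = 2.16e-06). The responses differed by 0.46 ± 0.101 (adjusted p = 0.00827, 0.105 under quantile normalization). Under vehicle it was lower in ovariectomized than in intact females by 0.37 ± 0.0714 (adjusted p = 0.00353), and under dexamethasone the difference was 0.08 ± 0.0714 (adjusted p = 0.441).

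Sult3a1 (Entrez 57430), the gene of an amine sulfotransferase, had 8.26, 9.52 and 8.81 in ovariectomized females on dexamethasone, against 7.01, 6.82 and 6.61 on vehicle. In intact females it had 8.50, 9.77 and 8.81 on dexamethasone, against 8.55, 6.98 and 6.99 on vehicle. Intact vehicle replicate 1 was as high as the dexamethasone libraries, and replicate 2 was the highest library of both dexamethasone groups. Sult3a1 rose by 2.05 ± 0.441 in ovariectomized females (adjusted p = 0.00345) and by 1.52 ± 0.441 in intact females (adjusted p = 0.0135). The rise in intact females missed the threshold without intact vehicle replicate 2 or 3 or intact dexamethasone replicate 2 (1.15 to 1.27, adjusted p = 0.0541 to 0.0574).

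Sult1c2 (Entrez 69083) acts on phenols and fell in both states. Its levels were 7.35, 7.40 and 7.31 in ovariectomized females on dexamethasone, against 8.51, 8.35 and 8.28 on vehicle, and 7.37, 7.48 and 7.20 in intact females on dexamethasone, against 8.18, 8.23 and 7.91 on vehicle. No dexamethasone library reached any vehicle library. It fell by 1.03 ± 0.0999 in ovariectomized females (adjusted p = 2.49e-05) and by 0.75 ± 0.0999 in intact females (adjusted p = 0.000121). Sult1b1 (Entrez 56362), known for conjugating thyroid hormones, had 9.31, 9.45 and 9.32 in ovariectomized females on dexamethasone, against 9.66, 9.37 and 9.81 on vehicle, and 9.37, 9.46 and 9.33 in intact females on dexamethasone, against 9.88, 9.94 and 9.74 on vehicle. The ovariectomized vehicle libraries spread over 0.44 and overlapped those on dexamethasone, while the intact groups were apart. It fell by 0.47 ± 0.0983 in intact females (adjusted p = 0.00223) and changed by -0.25 ± 0.0983 in ovariectomized females (adjusted p = 0.0577). Sult1a1, the main phenol sulfotransferase gene, passed in no comparison (0.13 ± 0.115 with dexamethasone in ovariectomized and 0.22 ± 0.115 in intact females).

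**Figure D4:**
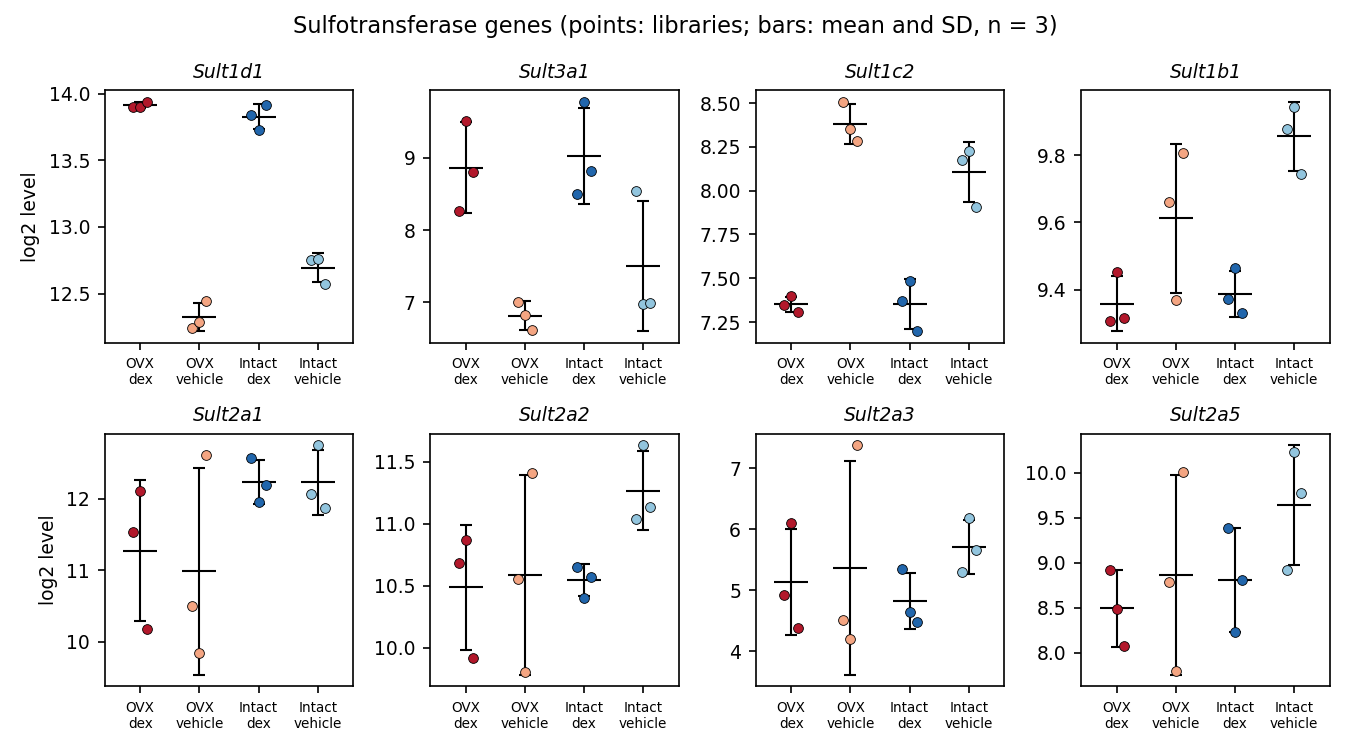
Log2 level of 8 sulfotransferase genes in each library (points), with group mean and SD (bars, n = 3), for ovariectomized (OVX) and intact females on dexamethasone (dex) or vehicle; each panel has its own axis. Sult1d1 is high and Sult1c2 low in both dexamethasone groups, and the Sult2a genes spread widely within groups, with ovariectomized vehicle replicate 3 high in all 4.

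The Sult2 genes encode sulfotransferases of hydroxysteroids and bile acids and are known to be female-predominant in mouse liver. None of the 6 tested passed in limma in any of the 5 comparisons, and at an unadjusted p under 0.05 the count was 1, for a higher level in ovariectomized than in intact females under dexamethasone. Replicates of these genes varied widely. Their median SD within a group was 0.472 and the highest 1.74, against a median of 0.0915 over all symbols tested. Sult2a1 (Entrez 20859) stood at 11.53, 12.10 and 10.18 in ovariectomized females on dexamethasone, against 10.49, 9.85 and 12.60 on vehicle, and at 12.56, 11.95 and 12.18 in intact females on dexamethasone, against 12.06, 12.74 and 11.87 on vehicle. Ovariectomized vehicle replicate 3 was the highest of its group, and it was so too for Sult2a2 (10.55, 9.80 and 11.41), Sult2a3 (4.52, 4.20 and 7.37), Sult2a5 (8.78, 7.80 and 10.02) and Sult2a6 (10.17, 9.46 and 10.39). The change of Sult2a1 was 0.29 ± 0.618 with dexamethasone in ovariectomized females and 0.01 ± 0.618 in intact females. For ovariectomized against intact under vehicle it was -1.24 ± 0.618 (adjusted p = 0.153 in limma). Ovariectomized vehicle replicates 1 and 2 (10.49 and 9.85) lay below every intact library, and replicate 3 (12.60) did not. With replicates this far apart, whether Sult2a1 differs between the gonadal states cannot be told. Sult2a7 was the gene with the unadjusted count (0.87 ± 0.348, adjusted p = 0.114). Sult5a1 did not pass either (0.29 ± 0.262 in ovariectomized and 0.28 ± 0.262 in intact females). Sult2a4, Sult2b1 and Sult4a1 had means of 1.94, 0.08 and 2.27 and were not tested.

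Most glutathione S-transferase genes were higher in ovariectomized than in intact females under vehicle. Of 17 tested, 11 were higher in ovariectomized than in intact females and 0 lower in limma (64.7% and 0%, against 12.4% and 15.5% of all symbols), with 13 higher and 0 lower at an unadjusted p under 0.05 and a median difference of 0.45. In the same comparison summed cholangiocyte markers lay at 11.30 to 11.57 in ovariectomized females, against 10.95 to 11.03 in intact females. That sum mainly follows Spp1 (mean 10.96, with Sox9 next at 6.42). Of 5 tested cholangiocyte markers 2 passed as higher and 0 as lower. Macrophage markers lay at 12.56 to 12.79, against 12.99 to 13.01, and of 5 tested 0 passed as higher and 4 as lower. The part of both cell types in the Gst differences was not tested. Under dexamethasone cholangiocyte markers lay at 10.83 to 11.08 in ovariectomized females, against 11.01 to 11.23 in intact females, and macrophage markers at 12.40 to 12.71, against 12.83 to 13.00. Under dexamethasone 5 Gst genes were higher and 0 lower in ovariectomized than in intact females (29.4% and 0%, against 7.74% and 5.08% of all symbols). At an unadjusted p under 0.05 the counts were 8 and 0, and under quantile normalization 1 passed as higher. With dexamethasone 1 rose and 5 fell in ovariectomized females (5.88% and 29.4%, against 21.3% and 19.4%). In intact females 6 rose and 3 fell (35.3% and 17.6%, against 22.8% and 25.9%). Fold changes between gonadal states under vehicle followed transcript length over 12897 genes (Spearman rho -0.397), and the tested members are short, with a median transcript of 1582 bases against 3069. After the length and GC trend was taken out, 7 Gst genes were higher and 0 lower in ovariectomized females under vehicle, and with dexamethasone in intact females 3 rose and 4 fell, where the median turned to -0.0039 (0.08 as deposited).

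Gsta enzymes are the main liver alpha class. Gsta1 (Entrez 14857) and Gsta2 (Entrez 14858), which are close copies, had the largest differences. Gsta1 had 5.88, 5.35 and 6.02 in ovariectomized females on dexamethasone, against 4.78, 4.76 and 5.32 in intact females on dexamethasone. Under vehicle it had 5.79, 5.66 and 6.62 in ovariectomized females, against 4.39, 4.74 and 4.72 in intact females. The ovariectomized libraries were above the intact libraries under each treatment. The difference was 1.40 ± 0.257 under vehicle (2.65-fold, adjusted p = 0.00274) and 0.80 ± 0.257 under dexamethasone (adjusted p = 0.0609). Gsta2 had 8.81, 9.53 and 9.29 in ovariectomized females on dexamethasone, against 7.92, 8.75 and 8.69 in intact females, and under vehicle 9.14, 9.50 and 9.71 in ovariectomized females, against 8.53, 8.67 and 8.21 in intact females. It differed by 0.98 ± 0.239 under vehicle (adjusted p = 0.0112) and 0.75 ± 0.239 under dexamethasone (adjusted p = 0.0573). Neither passed with dexamethasone in either gonadal state.

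Gsta4 (Entrez 14860), the enzyme for the lipid peroxidation product 4-hydroxynonenal, and Gstt2 (Entrez 14872), a theta-class enzyme that acts on sulfate esters, passed in all 4 pairwise comparisons. Gsta4 had 10.94, 10.80 and 10.98 in ovariectomized females on dexamethasone, against 11.23, 11.35 and 11.57 on vehicle, and 10.24, 10.56 and 10.28 in intact females on dexamethasone, against 10.69, 10.95 and 10.77 on vehicle. No 2 groups compared overlapped. It fell by 0.48 ± 0.107 with dexamethasone in ovariectomized and by 0.44 ± 0.107 in intact females, and was higher in ovariectomized than in intact females by 0.58 ± 0.107 under vehicle and 0.55 ± 0.107 under dexamethasone. The last difference missed the threshold without intact dexamethasone replicate 1 or ovariectomized dexamethasone replicate 3 (adjusted p = 0.0553 and 0.0617). Gstt2 had 11.73, 11.81 and 11.77 in ovariectomized females on dexamethasone, against 12.28, 12.38 and 12.38 on vehicle, and 11.48, 11.56 and 11.13 in intact females on dexamethasone, against 11.79, 11.99 and 11.77 on vehicle. Here too the groups compared were apart, and it fell by 0.58 ± 0.096 in ovariectomized females and by 0.46 ± 0.096 in intact females. Its higher level in ovariectomized females under dexamethasone missed the threshold under quantile normalization, where 0 of the 3 tested Gstt genes passed. The responses of Gsta4 and Gstt2 differed by -0.03 ± 0.151 (adjusted p = 0.897) and -0.12 ± 0.136 (adjusted p = 0.556).

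Gsta3 (Entrez 14859), on chromosome 1, encodes the enzyme that protects mice from aflatoxin epoxide, and its promoter is shown because it was 1 of the 3 with the antioxidant response letters, given in capitals.
Gsta3 (chr1:21240435-21240584, plus strand): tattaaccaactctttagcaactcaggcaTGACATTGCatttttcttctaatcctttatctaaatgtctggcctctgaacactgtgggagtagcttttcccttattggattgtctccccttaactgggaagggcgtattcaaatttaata

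Gsta3 had 15.03, 14.95 and 15.18 in ovariectomized females on dexamethasone, against 15.16, 15.15 and 15.32 on vehicle, and 14.70, 14.78 and 14.74 in intact females on dexamethasone, against 15.24, 15.12 and 15.26 on vehicle. The intact dexamethasone libraries were the lowest. It fell by 0.46 ± 0.0771 in intact females (adjusted p = 0.00053) and changed by -0.15 ± 0.0771 in ovariectomized females (adjusted p = 0.13), a difference of 0.31 ± 0.109 that did not pass (adjusted p = 0.0587).

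The Gstm genes are the mu class, in a cluster on chromosome 3. The dexamethasone response was lower in ovariectomized than in intact females for 3 of 7, Gstm1, Gstm4 and Gstm5 (42.9%, against 9.65% of all symbols). With dexamethasone 0 rose and 2 of 7 fell in ovariectomized females (0% and 28.6%, against 21.3% and 19.4%). At an unadjusted p under 0.05, 0 were higher and 3 lower there. In intact females 6 of 7 rose and 0 fell, also unadjusted (85.7% and 0%, against 22.8% and 25.9%). After the length and GC trend was taken out, 3 of the 7 rose in intact females. Under vehicle 5 of the 7 were higher in ovariectomized than in intact females and 0 lower (71.4% and 0%, against 12.4% and 15.5%). With the length and GC trend taken out, 3 of the 7 were higher and 0 lower there (median 0.31, 0.45 as deposited). Gstm1 (Entrez 14862) had 15.23, 14.99 and 15.25 in ovariectomized females on dexamethasone, against 15.25, 15.40 and 15.50 on vehicle, and 14.89, 14.96 and 14.98 in intact females on dexamethasone, against 14.51, 14.53 and 14.60 on vehicle. The intact vehicle libraries were the lowest. It rose by 0.40 ± 0.0849 in intact females (adjusted p = 0.00245) and changed by -0.22 ± 0.0849 in ovariectomized females (adjusted p = 0.0525), and the responses differed by -0.62 ± 0.12 (adjusted p = 0.00414). Under vehicle it was higher in ovariectomized than in intact females by 0.84 ± 0.0849 (adjusted p = 0.000168).

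Gstm2 and Gstm3 had the largest rises among the Gst genes in intact females. Gstm2 had 10.69, 10.38 and 10.70 in ovariectomized females on dexamethasone, against 10.18, 10.10 and 10.55 on vehicle, and 10.61, 10.48 and 10.92 in intact females on dexamethasone, against 9.96, 9.52 and 9.98 on vehicle. Gstm3 had 11.01, 10.73 and 11.10 in ovariectomized females on dexamethasone, against 10.88, 10.66 and 11.22 on vehicle, and 10.88, 10.71 and 11.39 in intact females on dexamethasone, against 10.38, 9.89 and 10.46 on vehicle. In both genes intact vehicle replicate 2 was the lowest library and the intact groups did not overlap. The rises in intact females were 0.85 ± 0.158 for Gstm2 (adjusted p = 0.00105) and 0.75 ± 0.2 for Gstm3 (adjusted p = 0.00848). The differences between responses did not pass (-0.54 ± 0.224 for Gstm2, adjusted p = 0.0968, and -0.73 ± 0.282 for Gstm3, adjusted p = 0.0787). Without intact vehicle replicate 2, 5 of the 44 members rose in intact females in place of 9.

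Gstm4 and Gstm5 fell with dexamethasone in ovariectomized females. Gstm4 had 10.30, 10.24 and 10.43 in ovariectomized females on dexamethasone, against 10.79, 10.66 and 10.94 on vehicle, and 10.20, 10.15 and 10.27 in intact females on dexamethasone, against 10.31, 10.14 and 10.27 on vehicle. Its ovariectomized vehicle libraries stood above the other 9. It fell by 0.47 ± 0.0767 in ovariectomized females (adjusted p = 0.000671) and changed by -0.03 ± 0.0767 in intact females, a difference of -0.44 ± 0.109 (adjusted p = 0.014, 0.0662 after taking out the length and GC trend). Gstm5 changed by -0.24 ± 0.0656 in ovariectomized females (adjusted p = 0.0116, 0.051 without ovariectomized vehicle replicate 3) and by 0.17 ± 0.0656 in intact females (adjusted p = 0.0461), a difference of -0.42 ± 0.0928 (adjusted p = 0.00841). Its rise in intact females was not among the 3 Gstm rises left after taking out the length and GC trend. Of its exon bases 13.93% overlap 4933431E20Rik on the opposite strand, and the library kit does not mark strand. Gstm6 and Gstm7 rose in intact females by 0.25 and 0.26, and neither passed after taking out the length and GC trend (adjusted p = 0.159 for Gstm6 and 0.135 for Gstm7). Gstm6 also missed the threshold without intact vehicle replicate 1 or 2 or intact dexamethasone replicate 1 or 2 (0.056 to 0.0652), and Gstm7 without intact dexamethasone replicate 3 (0.0565).

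Gstp1 (Entrez 14870), the pi-class enzyme, is known to be male-predominant in mouse liver. It had 11.47, 11.18 and 11.42 in ovariectomized females on dexamethasone, against 11.64, 11.86 and 11.52 on vehicle, and 11.09, 11.24 and 11.36 in intact females on dexamethasone, against 11.15, 11.17 and 11.12 on vehicle. The ovariectomized vehicle libraries were above all others. It fell by 0.32 ± 0.097 with dexamethasone in ovariectomized females (adjusted p = 0.0216) and changed by 0.08 ± 0.097 in intact females, and it was higher in ovariectomized than in intact females under vehicle by 0.53 ± 0.097 (adjusted p = 0.00279). Neither call passed after taking out the length and GC trend (adjusted p = 0.0506 for the fall and 0.0836 for the difference between gonadal states). The fall also missed the threshold without replicate 2 of either ovariectomized group (0.0837 and 0.0852).

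Gstt3 had 12.55, 12.55 and 12.54 in ovariectomized females on dexamethasone, against 11.55, 11.66 and 12.39 on vehicle, and 11.85, 12.05 and 11.89 in intact females on dexamethasone, against 11.92, 11.82 and 11.85 on vehicle. The ovariectomized dexamethasone libraries were the highest, and ovariectomized vehicle replicate 3 came close to them. It rose by 0.68 ± 0.162 in ovariectomized females (adjusted p = 0.00628) and changed by 0.06 ± 0.162 in intact females, and the difference did not pass (0.61 ± 0.229, adjusted p = 0.0689). Gstt1, an enzyme for small halogenated compounds, was higher in ovariectomized than in intact females by 0.28 ± 0.0844 under vehicle and 0.34 ± 0.0844 under dexamethasone. It did not pass for dexamethasone against vehicle. Under quantile normalization 0 of the 3 tested Gstt genes passed as higher in ovariectomized females under dexamethasone. After taking out the length and GC trend 1 of the 3 passed as higher under vehicle, and it was not Gstt1. Gstk1, of mitochondria and peroxisomes, and Gsto1, an omega-class thioltransferase, passed in no comparison. Gsto2, Gstp2 and Gstt4 had means of 2.71, 2.68 and 0.4 and were not tested.

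**Figure D5:**
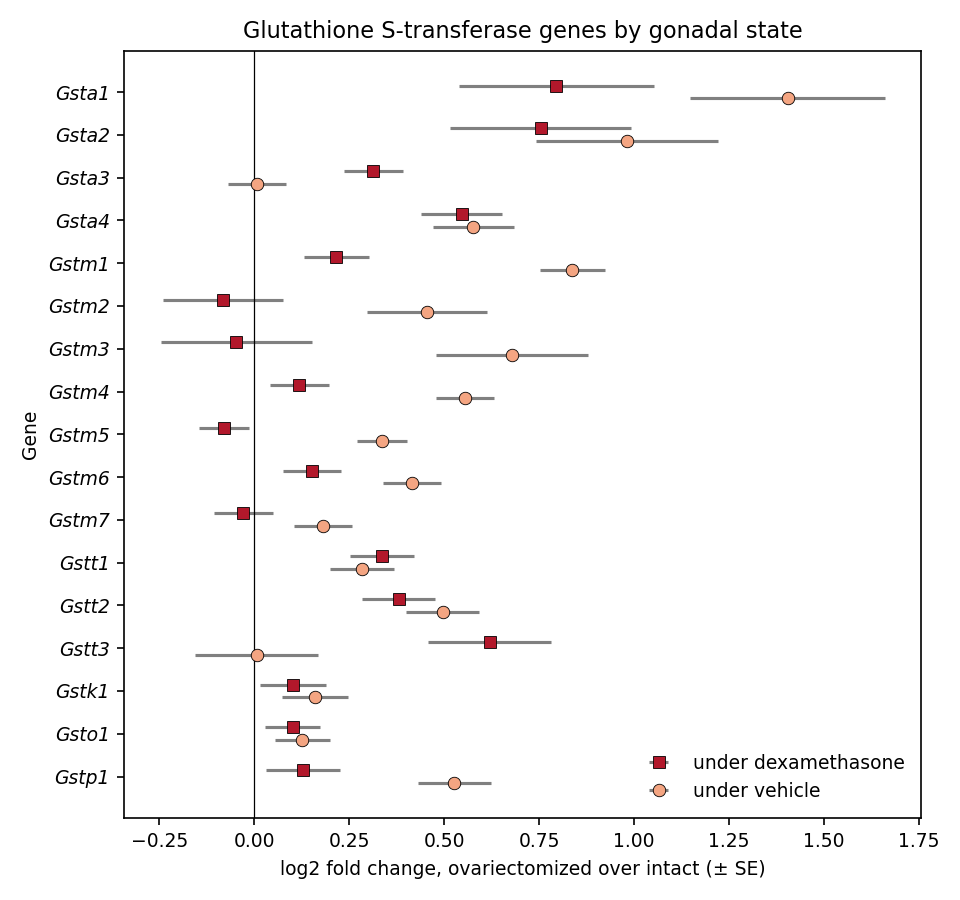
Log2 fold change of the 17 tested Gst genes for ovariectomized over intact females (horizontal axis, SE as lines) under dexamethasone (squares) and vehicle (circles). Under vehicle all 17 values are above 0, from 0.01 to 1.40, and under dexamethasone those of the Gstm genes lie between -0.08 and 0.22.

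The donors of the conjugated groups are made and carried by other enzymes and transporters. Of 18 genes of cofactor supply, 5 rose and 6 fell with dexamethasone in ovariectomized females (against 21.3% and 19.4% of all symbols), and 3 rose and 9 fell in intact females (against 22.8% and 25.9%). Ugp2, which makes UDP-glucose, fell by 0.61 ± 0.0889 in ovariectomized and by 0.80 ± 0.0889 in intact females. Slc35d1, which carries UDP-glucuronic acid into the endoplasmic reticulum, changed by 0.07 ± 0.0699 in ovariectomized females and fell by 0.75 ± 0.0699 in intact females, a difference of 0.82 ± 0.0989 (adjusted p = 0.000492). Ugdh, which makes UDP-glucuronic acid, passed in no comparison. Papss2, a PAPS synthase, changed by -0.36 ± 0.139 in ovariectomized females (adjusted p = 0.056) and fell by 0.86 ± 0.139 in intact females. Impad1, a phosphatase of the spent sulfonate donor in the Golgi, rose by 0.54 ± 0.089 in ovariectomized and fell by 0.50 ± 0.089 in intact females. Of the glutathione synthesis genes, Gclc fell by 0.62 ± 0.146 in ovariectomized and 0.97 ± 0.146 in intact females, Gclm by 0.45 ± 0.0881 and 0.75 ± 0.0881, and Gss by 0.53 ± 0.0737 and 0.47 ± 0.0737.

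Other conjugating enzymes moved in both directions. Of 17 tested of 20 listed, 2 rose and 6 fell with dexamethasone in ovariectomized females (against 21.3% and 19.4% of all symbols), and 2 rose and 5 fell in intact females (against 22.8% and 25.9%). The share that fell in intact females is near that of all symbols. Nnmt, the nicotinamide N-methyltransferase gene, rose by 1.90 ± 0.247 in ovariectomized and by 1.77 ± 0.247 in intact females. Inmt, which methylates indoleamines, fell by 0.66 ± 0.182 in ovariectomized and by 0.97 ± 0.182 in intact females. Mgst3, a microsomal transferase, was higher in ovariectomized than in intact females under vehicle by 0.77 ± 0.082 and fell with dexamethasone in ovariectomized females by 0.43 ± 0.082. Of 5 tested enzymes that undo or process conjugates, Dpep1, a dipeptidase of glutathione conjugate breakdown, rose by 1.28 ± 0.23 in ovariectomized and 1.68 ± 0.23 in intact females. The remaining changes with dexamethasone in this list were 1 rise (Ggt6, 0.36 ± 0.116) in ovariectomized females and 2 falls (Arsb, 0.44 ± 0.064, and Gusb, 0.20 ± 0.0556) in intact females. In total 2 rose and 0 fell in ovariectomized females (against 21.3% and 19.4% of all symbols). In intact females 1 rose and 2 fell (against 22.8% and 25.9%).

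Of 17 regulator genes, 3 rose and 3 fell with dexamethasone in ovariectomized females (against 21.3% and 19.4% of all symbols, so near the share of all), and 1 rose and 9 fell in intact females (against 22.8% and 25.9%). The response was higher in ovariectomized females for 8 and lower for 1 (against 15.3% and 9.65% of all symbols). Ppara, which encodes the fatty acid receptor PPAR alpha, fell by 0.45 ± 0.108 in ovariectomized and by 1.20 ± 0.108 in intact females, and Nr1i3, which encodes CAR, fell by 0.87 ± 0.195 in intact females. Hnf4a, a hepatocyte transcription factor, rose by 0.81 ± 0.0877 in ovariectomized females and changed by -0.03 ± 0.0877 in intact females, a difference of 0.84 ± 0.124 (adjusted p = 0.00125). Nfe2l2, which encodes NRF2, fell by 0.75 ± 0.0771 in ovariectomized and by 0.37 ± 0.0771 in intact females. Of 9 tested NRF2 targets 0 rose and 2 fell in ovariectomized females (against 21.3% and 19.4% of all symbols). At an unadjusted p under 0.05 the counts were 1 and 4. The share that fell there is near that of all symbols. In intact females 0 rose and 4 fell (against 22.8% and 25.9%), or 0 and 5 unadjusted. Gclc and Gclm fell in both states. Esr1, the oestrogen receptor alpha gene, was lower in ovariectomized than in intact females under vehicle by 1.39 ± 0.35 (adjusted p = 0.0132).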

How the data were processed

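RNA-seq of 12 mouse liver libraries was deposited by the authors as 1 table of log2 expression values per gene. Per the submitters' processing notes, the tools were TopHat2, HTSeq, Trim Galore, DESeq2 and DESeq and the build was mm9, without versions, roles or order. The label of the table describes its log2 values as HTSeq counts normalized with DESeq by the authors; the offset added before the log is not stated. The library kit named in the labels does not mark strand. Of several entries for a symbol the one highest on average was used, symbols with a mean of at least 4 were tested, and 1 fit over all 12 libraries was made with limma 3.58.1 (R 4.3.3, variance trend, Benjamini-Hochberg adjustment over 12965 symbols). The fit was tested on simulated data first.

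The members, the gene lists and the motifs were chosen with earlier results of these data known, and the letters of the element shared by the Ugt2b promoters after these were seen. Some genes of the further lists count in their totals but are not reported here by name. Named genes were up to 8 rises and 8 falls per comparison with the largest changes among members that passed, the member of each family with the largest dexamethasone change, every member whose responses differed, and up to 4 of each further list per comparison. Other members were named to describe their family after their values were seen. Shared sequence, transcript length and GC content came from GENCODE transcripts matched by symbol, and promoters from RefSeq GRCm38.p6. No coordinates of the 2 builds were mixed. Alternatives covered the filter, pseudocount, scaling, variance prior, libraries in the fit, replicate block, length and GC content, shared sequence, and each library left out.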

Additional observations from a re-analysis of the deposited data

Results flagged for a closer look

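The dexamethasone response differed between ovariectomized and intact females for 13 members, by the interaction term of the limma fit with adjustment over all symbols tested. Of the 44 tested members 22.7% had a higher and 6.82% a lower response, against 15.3% and 9.65% of all symbols (24.9% in either direction). Each value is the response in ovariectomized minus that in intact females. It was higher in ovariectomized females for Ugt1a1 (1.46 ± 0.123, adjusted p = 0.000148), Ugt1a5 (1.43 ± 0.375, adjusted p = 0.0176), Ugt1a6b (1.4 ± 0.159, adjusted p = 0.000368), Ugt1a6a (1.17 ± 0.176, adjusted p = 0.00128) and Ugt1a9 (1.16 ± 0.229, adjusted p = 0.00464). These 5 share exons, so they are not 5 separate results. It was also higher for Ugt3a1 (1.17 ± 0.178, adjusted p = 0.0013), Ugt3a2 (0.44 ± 0.108, adjusted p = 0.0138), Ugt2b34 (0.44 ± 0.113, adjusted p = 0.0157), Ugt2a3 (0.36 ± 0.106, adjusted p = 0.0289) and Sult1d1 (0.46 ± 0.101, adjusted p = 0.00827). It was lower for Gstm1 (-0.62 ± 0.12, adjusted p = 0.00414), Gstm4 (-0.44 ± 0.109, adjusted p = 0.014) and Gstm5 (-0.42 ± 0.0928, adjusted p = 0.00841). Under quantile normalization the differences of Ugt3a2, Ugt2b34, Ugt2a3 and Sult1d1 missed the threshold in limma (adjusted p = 0.105 to 0.14). After taking out the length and GC trend those of Ugt2b34 and Gstm4 did (0.0652 and 0.0662). That of Ugt2a3 also missed it with single libraries left out (0.0528 to 0.0699). Groups of 3 libraries are too small for the check on single outlying libraries.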

How the results depend on the processing

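Of the values of named members under the alternatives, 1515 kept their direction and their side of the threshold, 53 lost the threshold, 10 gained it and 4 changed sign. Among members higher in ovariectomized than in intact females under vehicle (11), the count was 7 after taking out the length and GC trend and 6 among members with under 20% shared sequence; of those lower (5), 2 had under 20% shared sequence. Under dexamethasone the 12 higher became 7 under quantile normalization and 7 among members with under 20% shared sequence. The 10 with a higher response in ovariectomized females became 6 under quantile normalization and 5 among members with under 20% shared sequence, and the 3 with a lower response became 5 under quantile normalization. Fewer members are counted under the limit on shared sequence, and the cause of the other shifts was not tested.

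Leaving out 1 library at a time gave 5 to 10 rises and 15 to 18 falls with dexamethasone in intact females, and 3 to 5 rises and 7 to 9 falls in ovariectomized females. Ovariectomized against intact, it gave 10 to 13 higher and 4 to 8 lower under vehicle, and 5 to 13 higher and 0 lower under dexamethasone. Changes of sign, none past the threshold, were those of Gsto1 (0.020 under quantile normalization) and Gstp1 (-0.13 after taking out the length and GC trend) with dexamethasone in intact females, and, in ovariectomized females with 1 library left out, Sult2a5 (-0.91 to 0.20) and Sult5a1 (-0.048 to 0.51).

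The sample titles give replicate numbers without saying whether these pair the samples, and the main fit used no pairing. Deviations of same-numbered libraries correlated at -0.231 to 0.396 over 18 pairs, 6 of them over 0.1. Of 12 libraries, 5 correlated best with their own number. Such a check cannot tell whether the replicate number marks a batch. With the number as a replicate block, 5 members had a lower response in ovariectomized females in place of 3. The table gives no counts, so what depth limits cannot be stated.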
